A study of Mus musculus with 5 samples.

Results

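The BCL2 family genes described here are the 10 genes Bcl2, Bcl2l1, Mcl1, Bcl2a1b, Bcl2a1d, Bcl2l11, Bax, Bak1, Bid and Bbc3, taken by symbol from the 24419 rows of the gene table. They were followed in bone marrow-derived macrophages (BMMs) of C57BL/6 mice (C57BL6/J in the series' design text), which are macrophages grown from marrow cells with the growth factor M-CSF at 50 ng/ml for 5 days. All 5 samples had been activated with 100 ng/ml LPS, a bacterial cell wall component. For 18 h, 2 of them (PBS) then received the buffer PBS and 3 of them (Sema3G) received 100 ng/ml Semaphorin3G, a secreted protein of the class 3 semaphorins that binds neuropilin and plexin receptors. No sample without LPS was analysed here, so every value below is from LPS-activated cells. Nothing in the labels says that the samples of a group came from separate mice or cultures, so p-values measure the spread between these samples, which may be technical.

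The BCL2 family decides at the outer membrane of the mitochondrion whether a cell dies by apoptosis. Survival proteins (BCL2, BCL-XL from Bcl2l1, MCL1 and A1 from the Bcl2a1 genes) hold the pore formers BAX and BAK in check, and BH3-only proteins (BIM from Bcl2l11, BID, PUMA from Bbc3) block the survival proteins or activate the pore formers. When BAX and BAK open the membrane, cytochrome c leaves the mitochondrion and activates caspases. Macrophages are known to need M-CSF signals to stay alive, and LPS is known to induce A1 through NF-κB.

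RNA was measured with libraries of RNA 3′ ends carrying unique molecular identifiers (UMIs), so that each RNA gives at most about 1 count and the values are not scaled by length. The unit is CPM, the UMIs of a gene scaled to a common library size, and library totals ran from 1798469 to 2215855 UMIs. The libraries differed in more than the treatment. Rn45s, the ribosomal RNA precursor gene, took 1.01% and 3.19% of the UMIs with PBS and 6.31%, 7.40% and 7.88% with Sema3G, and the share of UMIs on listed genes was 77.6% and 75.6% against 71.3%, 67.1% and 65.9%. On the log2(CPM + 1) scale the median gene of all 10088 genes tested stood at -0.22, Sema3G against PBS. The median was -0.04 after scaling by TMM factors, and 0.04 for CPM recomputed over listed genes without Rn45s, called gene-only CPM below. Changes below are on the deposited CPM unless another scaling is named, and they include that shift. All 10 macrophage markers had UMIs in the libraries, with a summed level of 10672 to 13540 CPM with PBS and 9876 to 10336 CPM with Sema3G. Of the lymphoid markers 7 of 9 were at 0 in all 5 libraries, and the neutrophil markers, 4 of 9 at 0, summed to 116 to 169 CPM with PBS and 103 to 133 CPM with Sema3G, of which S100a8 alone made 113 and 165 CPM and 102, 130 and 129 CPM. Stromal markers, none of 8 at 0, summed to 33.7 to 73.1 CPM and 26.6 to 53.9 CPM. Dendritic cell markers reached at most 1.07 CPM with PBS and 2.22 CPM with Sema3G in sum (4 of 7 at 0), and mast cell and basophil markers 0 and 0.556 CPM (5 of 7 at 0).

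What a 3′ end library can tell of the A1 genes depends on their sequence. The A1 genes are copies of each other on mouse chromosome 9 (GRCm38, GENCODE M21), with Bcl2a1b at chr9:89199209-89207827 on the + strand and Bcl2a1d at chr9:88723285-88731914 on the - strand. Their transcripts differed at 7 of 817 aligned bases (99.14% identity). The last 90 coding bases up to the stop codon are shown for Bcl2a1b, Bcl2a1d and their neighbour Bcl2a1a because the difference among the copies there is a single base, in capitals.
Bcl2a1a: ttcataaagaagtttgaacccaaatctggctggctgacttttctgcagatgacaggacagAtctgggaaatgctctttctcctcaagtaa
Bcl2a1b: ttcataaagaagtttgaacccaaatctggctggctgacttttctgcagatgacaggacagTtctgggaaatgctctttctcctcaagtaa
Bcl2a1d: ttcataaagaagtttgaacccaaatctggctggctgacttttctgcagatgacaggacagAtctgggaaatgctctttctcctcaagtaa
Reads were 75 bases long. Of the 75-base windows in the last 300 bases of the Bcl2a1d transcript, 94.25% (213 of 226) also occurred in Bcl2a1a or Bcl2a1b. For Bcl2a1b the share was 60.18% (136 of 226) and for Bcl2a1a 49.56%. The sources used here do not say how reads that match several copies were counted, so the A1 values below are uncertain. No such window of Bcl2, Bcl2l1, Mcl1, Bak1, Bcl2l11, Bid or Bbc3 was shared with another gene, and 15.35% of those of Bax were shared with Gm45808, a model overlapping it on the same strand. Exons of Bid overlap Bcl2l13, those of Bak1 overlap Ggnbp1 and those of Bcl2 overlap an antisense RNA, each on the opposite strand. Exons of Bcl2a1b overlap the protein-coding model Gm29094 on the same strand. The sources used here do not say whether the counting used strand.

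Transcripts of 9 of the 10 members were detected, and Mcl1 made up most of them. Mcl1, at chr3:95658788-95663176 on the + strand, took 77.3% and 78.5% of the members' UMIs with PBS and 75.4%, 76.9% and 81.3% with Sema3G. Among the survival genes alone its share was 94.7% to 97.9%. With PBS the order by mean level was Mcl1 (714 ± 4.14 CPM, SD, n = 2), Bcl2l11 (67.6 ± 3.92), Bak1 (34.5 ± 4.08), Bax (33.8 ± 12.0), Bcl2l1 (19.0 ± 6.48), Bid (18.7 ± 3.88), Bbc3 (17.9 ± 3.40), Bcl2a1b (9.01 ± 6.68) and Bcl2 (2.44 ± 0.428). Bak1 and Bax did not differ beyond their spread, nor did Bcl2l1, Bid and Bbc3 among each other. Mcl1 stood above, and Bcl2 below, every other detected member in each of the 5 libraries. Bcl2l11 was the next after Mcl1 in all 5. The summed level of all members was 921 and 914 CPM with PBS and 849, 933 and 962 CPM with Sema3G, so the groups overlapped.

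**Figure D1:**
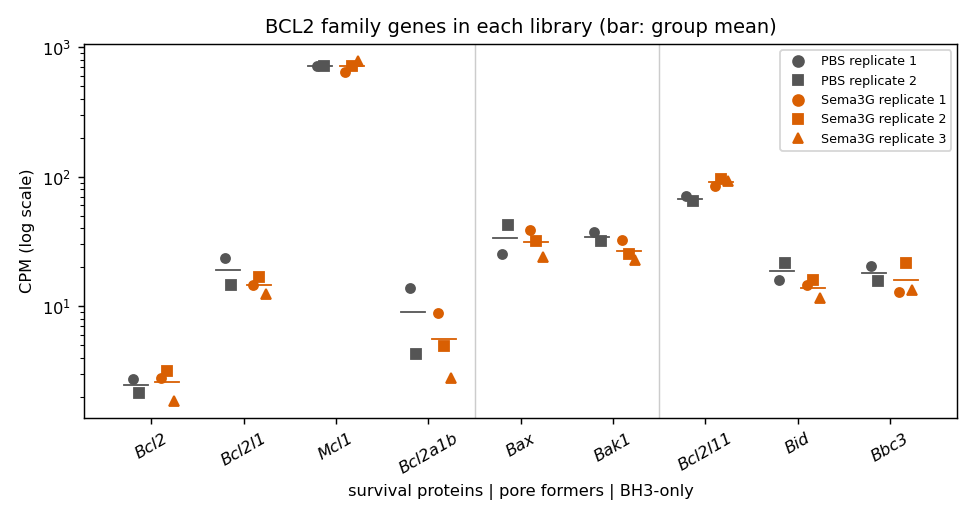
Level of each detected BCL2 family gene in CPM (log scale) in the 2 PBS libraries (grey) and the 3 Sema3G libraries (orange), with a bar at each group mean. Mcl1 lies between 640 and 781 CPM in all 5 libraries, and Bcl2l11 is the gene whose 3 Sema3G points all lie above both PBS points. Bcl2a1d, with 0 UMIs, is not drawn.

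Of the members, 9 passed the filter of a mean of at least 1 CPM, and none of them was called different between Sema3G and PBS at an adjusted p of 0.05 (limma on log2(CPM + 1), Benjamini-Hochberg adjustment over 10088 genes, of which 1.8% were called). edgeR's quasi-likelihood test called none of the 9 (3.01% of all genes), DESeq2 none (2.42%, with no adjusted p for Bcl2) and limma on TMM-scaled CPM none (3.22%). With gene-only CPM, 1 member was called (4.94% of all genes), which was Bcl2l11. At an unadjusted p under 0.05 there was 1 member, again Bcl2l11, against 21.1% of all genes tested. The median change of the 9 was -0.19, beside -0.22 for all genes, with 5 members above that median and 4 below. Above 0 were 2 members with the deposited CPM, and 5 with either other scaling. Relative to the median gene the changes were 0.65 for Bcl2l11, 0.27 for Bcl2, 0.22 for Mcl1, 0.14 for Bax, 0.04 for Bbc3, -0.11 for Bcl2l1, -0.14 for Bak1, -0.17 for Bid and -0.32 for Bcl2a1b. With so few libraries a moderate change in a member with few UMIs could not be detected at this depth, and the interval of each difference is given below. In bulk RNA, fewer cells of a type and less RNA per cell cannot be told apart.

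Bcl2l11 encodes BIM, the BH3-only protein through which loss of growth factor signals is known to kill blood cells. It lies at chr2:128126038-128162547 on the + strand. Its level was 70.3 and 64.8 CPM with PBS and 84.5, 96.1 and 91.7 CPM with Sema3G, from 128, 121, 152, 213 and 199 UMIs. Every Sema3G library lay above both PBS libraries, which held for 11.9% of all genes tested. The means were 67.6 ± 3.92 CPM (SD, n = 2) and 90.8 ± 5.86 CPM (SD, n = 3), and the ratio of the groups' pooled CPM was 1.35 (95% interval 1.16 to 1.57, counting error only). On the log2(CPM + 1) scale the change was 0.42 (standard error 0.19, 95% interval 0.02 to 0.82), with an unadjusted p of 0.0401 and an adjusted p of 0.217 from limma. Relative to the median gene it was 0.65. Of the 3 scalings, the call was made only with gene-only CPM (0.71, adjusted p = 0.0310 from limma), whereas it missed the threshold with TMM factors (0.62, adjusted p = 0.0776 from limma). The Rn45s share moved with the treatment in the same libraries, and its part in the result was not tested.

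Because Mcl1 carries most of the family's UMIs, Bcl2l11 and Bax were also set against it within each library. Such within-library ratios do not depend on how the libraries are scaled. These ratios were chosen after the values had been seen and were not tested. The Bcl2l11 count was 9.88 and 9.03 per 100 Mcl1 UMIs with PBS and 13.2, 13.4 and 11.7 with Sema3G. All 3 Sema3G libraries were above both PBS libraries, with means of 9.46 ± 0.604 (SD, n = 2) and 12.8 ± 0.906 (SD, n = 3). Bcl2l11 was also set against the sum of the death-promoting members (Bax, Bak1, Bcl2l11, Bid and Bbc3). It took 41.6% and 36.9% of their UMIs with PBS and 46.2%, 50.5% and 56.2% with Sema3G, without overlap. Both ratios use the Bcl2l11 counts already given and are not separate evidence of a change. The share of all genes that separate in such ratios was not computed. The summed death-promoting members per 100 UMIs of survival members did overlap between the groups, at 22.5 and 23.8 with PBS and 27.5, 25.7 and 20.4 with Sema3G. Bax per 100 Mcl1 UMIs overlapped too, at 3.55 and 5.90 against 6.08, 4.40 and 3.07.

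**Figure D2:**
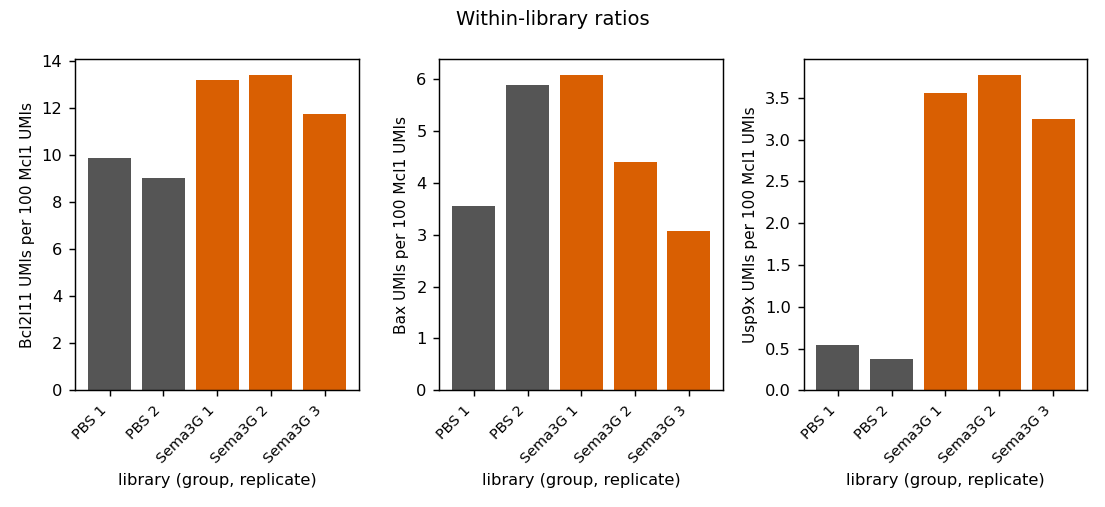
UMIs of Bcl2l11, Bax and Usp9x per 100 UMIs of Mcl1 in each of the 5 libraries, grey for PBS and orange for Sema3G, with each vertical axis starting at 0. The bars of Bcl2l11 are higher in the 3 Sema3G libraries (11.7 to 13.4) than in the PBS libraries (9.03 and 9.88), those of Bax overlap, and those of Usp9x go from at most 0.541 with PBS to at least 3.24 with Sema3G.

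FOXO transcription factors are known to activate the genes for BIM and PUMA when growth factor signalling falls. The FOXO core GTAAACA was therefore searched, on both strands, in the RefSeq promoter windows of the members, from 250 bases before to 50 bases after each start (GRCm38.p6). All 10 members had a window, 15 in all, and the motif was in a window of 2 of them, Bcl2l11 and Bbc3. The stretches that hold it are shown on the strand of the gene with the motif in capitals.
Bcl2l11, chr2:128125788-128125842, + strand, motif 227 bases before the start: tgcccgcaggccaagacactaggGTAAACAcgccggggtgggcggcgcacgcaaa
Bbc3, chr7:16310069-16310125, + strand, motif 167 bases before a RefSeq start: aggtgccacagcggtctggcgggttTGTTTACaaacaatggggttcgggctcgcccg
The first stretch lies upstream of every GENCODE transcript of Bcl2l11. The stretch of Bbc3 lies inside the span of the gene, which begins further upstream. Whether it falls in an exon or an intron is not given here. Over all genes, 3.65% of the 32851 windows (1199) and 4.05% of the 27025 genes (1095) held the motif. A match describes these letters and is not a binding site. Of the FOXO genes, Foxo3 was on the list of regulators and had 1 UMI in all, in Sema3G replicate 2.

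The other BH3-only genes were not called. Bid, whose product links death receptors to mitochondria, is at chr6:120891930-120916853 on the - strand. It had 15.9 and 21.4 CPM with PBS and 14.5, 15.8 and 11.5 CPM with Sema3G, from 25 to 40 UMIs. The Sema3G libraries were all below both PBS libraries, most closely for Sema3G replicate 2 against PBS replicate 1, which held for 26.5% of all genes tested. The change was -0.40 (standard error 0.29, 95% interval -1.01 to 0.22, adjusted p = 0.440 from limma), or -0.17 relative to the median gene, and without PBS replicate 2 it was -0.19. Bbc3, which encodes the p53 target PUMA and lies at chr7:16308393-16318205 on the + strand, had 20.3 and 15.5 CPM with PBS and 12.8, 21.7 and 13.4 CPM with Sema3G. Its highest and its lowest library were both Sema3G libraries. The change was -0.19 (95% interval -0.83 to 0.45, adjusted p = 0.746 from limma), and its sign turned with scaling, to 0.09 with gene-only CPM. With a library left out the change of Bbc3 lay between -0.42 and -0.0024.

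Neither pore former was called. Bax, at chr7:45461697-45466898 on the - strand, had 25.3 and 42.3 CPM with PBS and 38.9, 31.6 and 24.0 CPM with Sema3G, so the PBS libraries themselves differed by more than the group means (33.8 ± 12.0 and 31.5 ± 7.48 CPM). The change was -0.08 (95% interval -0.65 to 0.49, adjusted p = 0.889 from limma) with the deposited CPM and 0.12 with TMM factors. Bak1, at chr17:27019810-27029009 on the - strand, had 37.4 and 31.6 CPM with PBS and 32.2, 25.3 and 22.6 CPM with Sema3G. Here only Sema3G replicate 1 reached into the PBS range, and the change was -0.37 (95% interval -0.88 to 0.15, adjusted p = 0.392 from limma).

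Among the survival genes Mcl1 was measured with the most UMIs. It had 711 and 717 CPM with PBS and 640, 718 and 781 CPM with Sema3G, from at least 1151 UMIs a library. The Sema3G libraries spread to both sides of the PBS libraries. The ratio of the pooled CPM was 1.004 (95% interval 0.957 to 1.05, counting error only). The change was -0.01 (standard error 0.20, 95% interval -0.42 to 0.40, adjusted p = 0.988 from limma), and 0.20 with TMM factors and 0.28 with gene-only CPM, so its sign depends on the scaling.

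Bcl2l1, at chr2:152780668-152831728 on the - strand, encodes BCL-XL. It had 23.6 and 14.5 CPM with PBS and 14.5, 16.7 and 12.4 CPM with Sema3G, where PBS replicate 1 was the highest and the others lay close together. The change was -0.34 (95% interval -0.97 to 0.29, adjusted p = 0.523 by limma). It shrank to -0.0016 when PBS replicate 1 was left out and grew to -0.67 without PBS replicate 2. Bcl2, the founding member of the family, at chr1:106538178-106714274 on the - strand, had between 4 and 7 UMIs in each library. Its levels were 2.75 and 2.14 CPM with PBS and 2.78, 3.16 and 1.84 CPM with Sema3G, which overlapped. The change was 0.05 with a 95% interval of -0.95 to 1.05 (adjusted p = 0.964 from limma). A change of either sign within that interval would be compatible with these few UMIs and libraries.

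Of the A1 genes, Bcl2a1b was counted 25 and 8 times in the PBS libraries and 16, 11 and 6 times in the Sema3G libraries, which is 13.7 and 4.28 CPM against 8.90, 4.96 and 2.77 CPM. PBS replicate 1 was the highest library and the groups overlapped. The change was -0.54 (standard error 0.49, 95% interval -1.56 to 0.48, adjusted p = 0.525 by limma), and it turned to 0.20 when PBS replicate 1 was left out. Bcl2a1d had 0 UMIs in all 5 libraries, which allows a level of up to 1.35 to 1.67 CPM a library (3 UMIs), for counting error only. Since the end of its transcript is shared almost wholly with the other A1 genes, as the window count above shows, a count of 0 does not say that the gene was silent. Bcl2a1a had 12 UMIs in all.

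**Figure D3:**
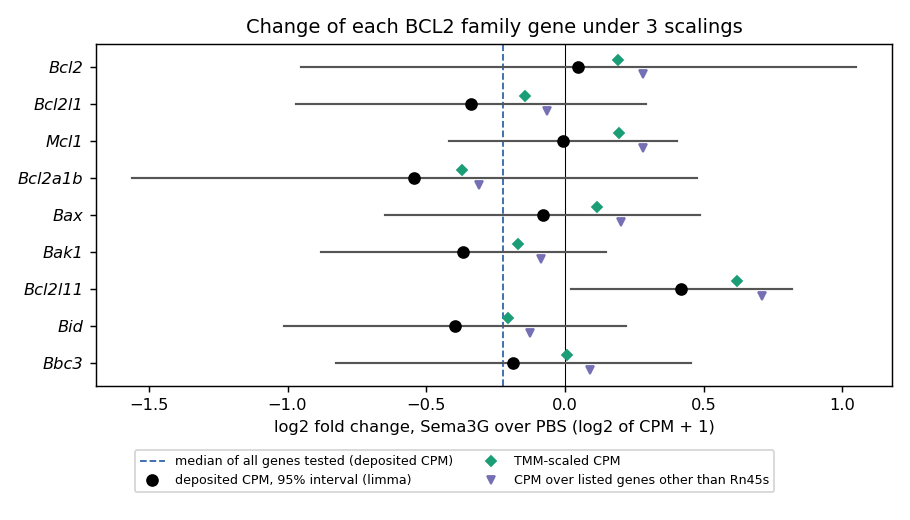
Change of each tested BCL2 family gene, Sema3G over PBS, on the log2(CPM + 1) scale. Black points with lines are limma estimates from the deposited CPM with 95% intervals, diamonds are TMM-scaled CPM, triangles are gene-only CPM, and the dashed line is the median of all genes tested (-0.22). The interval of Bcl2l11 (0.02 to 0.82) is the only one that leaves out 0.

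The wider BCL2 family was followed with a list of 18 further genes, of which 11 had UMIs and were tested. None was called by limma (1.8% of all genes), edgeR (3.01%) or DESeq2 (2.42%, with no adjusted p for Bcl2a1a, Pmaip1 and Bcl2l12). Among the 11, 1 had an unadjusted p under 0.05, beside 21.1% of all genes, which was Bnip3. Its product sits on mitochondria and is induced by low oxygen. Bnip3 had 219 and 318 CPM with PBS and 169, 199 and 209 CPM with Sema3G, a change of -0.46 (adjusted p = 0.201 from limma), or -0.24 relative to the median gene. Without PBS replicate 2 it was -0.19. The most abundant of the list was Bnip2 (306 ± 40.5 and 258 ± 15.5 CPM, change -0.24), followed by Bnip3 and Bnip3l (change -0.11). With a library left out the change of Bnip2 lay between -0.38 and -0.11. Bad, a BH3-only gene controlled by AKT phosphorylation, had a mean of 74.6 ± 7.89 CPM with PBS and 61.3 ± 6.26 CPM with Sema3G (change -0.28, adjusted p = 0.419 from limma). The remaining values were 0.45 for Bcl2l2, which encodes the survival protein BCL-W and was the only one above 0, -0.20 for Bcl2l13, -0.48 for Bmf, -0.55 for Pmaip1, -0.68 for Bcl2a1a, -0.77 for Bnip1 and -0.89 for Bcl2l12, with at most 111 UMIs in all for each. With a library left out, Bmf lay between -0.94 and -0.02 and Bcl2l13 between -0.37 and -0.04. Likewise Bcl2l12 lay between -1.42 and -0.47 and Bcl2l2 between 0.25 and 0.64. The median of the 11 was -0.46, and 2 of the 11 were above 0 with TMM factors and 5 with gene-only CPM.

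Downstream of the pore formers, 15 genes of the mitochondrial step and the caspases were all tested and none was called by limma (1.8% of all genes), edgeR (3.01%) or DESeq2 (2.42%). DESeq2 gave no adjusted p for some of them. At an unadjusted p under 0.05, 4 were lower with Sema3G and none was higher, beside 21.1% of all genes with such a p in either direction, and 7 of the 15 were lower in every Sema3G library, beside 26.5% of all genes. The median was -0.51, or -0.28 relative to the median gene. Above 0 were 3 of the 15 with the deposited CPM, 4 with TMM factors and 5 with gene-only CPM. Cycs, the gene of cytochrome c, had 24 and 30 UMIs in the PBS libraries, against 11, 14 and 3 in the Sema3G libraries. All Sema3G libraries were below both PBS libraries, and the change of -1.64 (standard error 0.46) had an adjusted p of 0.0761 from limma. The abundant channel genes Vdac1 and Vdac2, of the outer mitochondrial membrane, changed by -0.11 and -0.51 (adjusted p = 0.757 and 0.181 from limma).

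In the list of inhibitors of apoptosis and the death receptor arm, 13 of 14 genes were tested and 1 was called, higher with Sema3G (1.8% of all genes were called). TMM factors gave 2 calls (3.22% of all genes) and gene-only CPM 3 (4.94%). At an unadjusted p under 0.05 there were 7 of the 13, 3 higher and 4 lower, beside 21.1% of all genes. The called gene was Birc6, which encodes a giant ubiquitin ligase that inhibits caspases. It had 61.5 and 92.6 CPM with PBS and 121, 156 and 137 CPM with Sema3G. Every Sema3G library lay above both PBS libraries, which held for 11.9% of all genes tested. The change was 0.85 (standard error 0.21, adjusted p = 0.0445 from limma), or 1.08 relative to the median gene. The adjusted p of Birc6 was 0.260 without PBS replicate 1 (change 0.56), 0.294 without Sema3G replicate 2 and 0.198 without Sema3G replicate 3, and the call was lost in 6 of 15 alternatives. edgeR's quasi-likelihood test called Birc6 (adjusted p = 0.0239) and also Xiap (adjusted p = 0.0412), a direct caspase inhibitor named here after its values were seen, beside 3.01% of all genes called. DESeq2 called Birc6 (adjusted p = 0.00646) and did not call Xiap (adjusted p = 0.0701). Xiap had 51.1 and 40.7 CPM with PBS and 71.2, 59.6 and 75.6 CPM with Sema3G, and its adjusted p from limma was 0.143 with the deposited CPM, 0.0385 with TMM factors and 0.0167 with gene-only CPM. Cflar, which encodes a blocker of caspase-8 activation and was also named after its values were seen, changed by 0.48 with the deposited CPM (limma adjusted p of 0.176) and by 0.77 with gene-only CPM (0.0228), and its limma adjusted p with TMM factors was 0.0563. The abundant TNF receptor gene Tnfrsf1a changed by -0.50 (adjusted p = 0.175 from limma), or -0.22 without PBS replicate 1, and its adaptor Traf2 by -1.27, from 30 and 25 UMIs under PBS to 14, 13 and 8 with Sema3G (adjusted p = 0.0868 from limma). Tradd and Casp8, also named after their values were seen, changed by -0.65 and -0.43 (adjusted p = 0.195 and 0.235 from limma). The median of the 13 was -0.31.

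Of 18 genes whose products are known to regulate the members, 17 were tested, 1 was called higher and 1 lower (1.8% of all genes were called). At an unadjusted p under 0.05 there were 6 of the 17, 3 higher and 3 lower, beside 21.1% of all genes. With gene-only CPM 3 were called (4.94% of all genes), namely Usp9x, Huwe1 and Gsk3b. Huwe1 and Gsk3b were named after their values were seen. So were Rela and Relb, which were lower in every Sema3G library, as were 26.5% of all genes tested. Rela had 125 and 123 CPM with PBS and 98.4, 69.0 and 57.2 CPM with Sema3G. Its change was -0.76 (adjusted p = 0.0851 from limma). Relb changed by -0.48 (adjusted p = 0.217 from limma), and by -0.76 to -0.21 with a library left out. Neither was called with gene-only CPM (limma adjusted p of 0.235 and 0.716). Huwe1, which encodes a ubiquitin ligase known to mark MCL1 for degradation, was higher in every Sema3G library, as were 11.9% of all genes tested. Its change was 0.44, with a limma adjusted p of 0.210 with the deposited CPM and 0.0340 with gene-only CPM. The adjusted p of Huwe1 was 0.0830 with TMM factors, 0.0847 in edgeR and 0.153 in DESeq2, so it was not called there. Gsk3b, which encodes a kinase known to prime MCL1 for degradation, changed by 0.54 (limma adjusted p of 0.184, and 0.0488 with gene-only CPM), and by 0.11 when PBS replicate 1 was left out. TMM factors (0.115), edgeR (0.187) and DESeq2 (0.229) did not call Gsk3b by their adjusted p. The called gene with higher levels was Usp9x, which encodes a deubiquitinase known to stabilise the MCL1 protein. Usp9x had 7 and 5 UMIs in the PBS libraries, against 41, 60 and 55 in the Sema3G libraries, or 3.85 and 2.68 CPM against 22.8, 27.1 and 25.4 CPM. The ratio of the groups' pooled CPM was 7.75 (95% interval 4.31 to 15.3, counting error only), and the change was 2.62 (standard error 0.32, adjusted p = 0.000185 from limma). It was called in all 15 alternatives, with an adjusted p of at most 0.00196 when any 1 library was left out. Set against the RNA of its target, Usp9x had 0.541 and 0.373 UMIs per 100 Mcl1 UMIs with PBS and 3.56, 3.77 and 3.24 with Sema3G. The Rn45s share moved with it, and its part in the result was not tested. Usp9x RNA does not measure MCL1 protein, which these data do not hold.

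The called gene with lower levels was Mapk3, which encodes ERK1, a kinase known to mark BIM for degradation. Mapk3 had 429 and 546 CPM with PBS and 335, 250 and 238 CPM with Sema3G. Every Sema3G library lay below both PBS libraries, which held for 26.5% of all genes tested. The change was -0.83 (standard error 0.20, adjusted p = 0.0439 from limma), or -0.61 relative to the median gene. The call was lost with TMM factors (-0.63, adjusted p = 0.0749 from limma) and with gene-only CPM (-0.54, adjusted p = 0.116 from limma). The call was also lost without Sema3G replicate 2 or 3 (limma adjusted p of 0.294 and 0.266), and kept without Sema3G replicate 1 (0.00894). The change was -1.01 without PBS replicate 1 and -0.66 without PBS replicate 2. Csf1r, the receptor of M-CSF and the most abundant gene of the list, had 4975 and 3909 CPM with PBS and 3478, 3563 and 3451 CPM with Sema3G (change -0.33, or -0.16 without PBS replicate 1, limma adjusted p = 0.483 with all libraries). The median of the 17 was -0.23, close to that of all genes.

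**Figure D4:**
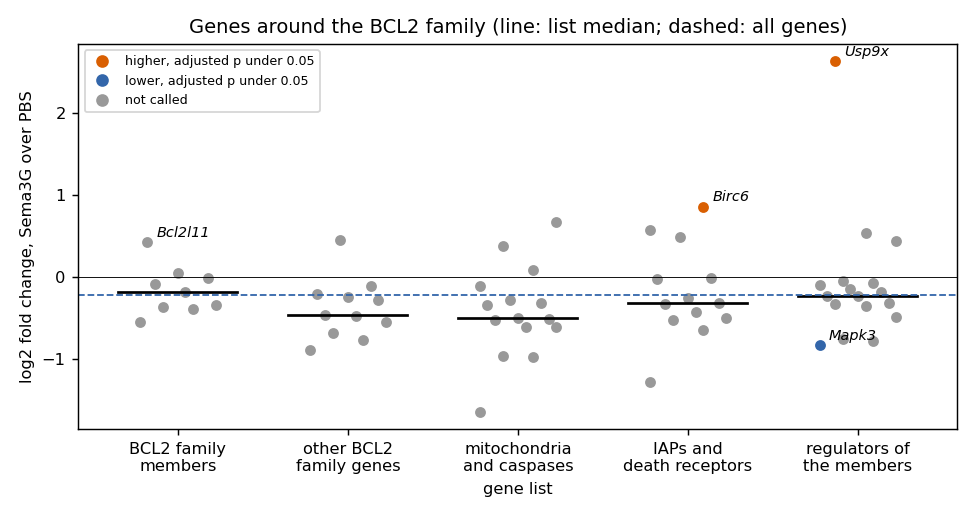
Change of each tested gene, Sema3G over PBS on the log2(CPM + 1) scale, for the BCL2 family members and for the lists of related genes. Short black lines are list medians, the dashed line is the median of all genes tested (-0.22), and coloured points passed an adjusted p of 0.05 (limma), which 1.8% of all genes did. The coloured points are Usp9x (2.62), Birc6 (0.85) and Mapk3 (-0.83), and none of the 9 members is coloured.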

How the data were processed

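RNA from 5 samples was used, 2 PBS and 3 Sema3G. The authors prepared 3′ end libraries with UMIs, sequenced 75-base single reads, mapped them to mm10, obtained the UMI counts of genes in Strand NGS and normalized the values with edgeR (3.12 in the submitters' processing notes). The sources used here name neither a gene annotation nor a filter. The deposited unit is CPM. CPM values were whole multiples of a step in each library, from which the counts were recovered (all, 100%, to within 0.01). Columns of the authors' own comparison (3) were not used. A spreadsheet had changed 27 symbols to dates, none of them named here.

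The changes were tested by limma-trend (limma 3.58.1 in R 4.3.3) on log2(CPM + 1), keeping the 10088 genes whose mean reached 1 CPM, and p-values were adjusted by the Benjamini-Hochberg method. This scale understates changes of low genes. Counts of genes without overlap between groups are over the 10085 tested genes with a symbol of their own. edgeR (4.0.16) and DESeq2 (1.42.0) on the recovered counts, other pseudocounts (0.1 and 5), filters (none, a mean of 5 CPM) and scalings (TMM factors, and CPM recomputed over listed genes without Rn45s), the replicate block and leaving out each library were alternatives. The members and lists were chosen with earlier results of these data known. Named are all members, every tested gene of the wider family, and of each other list the genes past the adjusted p, the 2 of highest mean and the 2 of largest change, except 1 result not reported here. Gene models came from GENCODE M21, and promoter sequences from RefSeq (GRCm38.p6). Samples were counted separately as the labels name them. For Sema3G replicates 2 and 3 the chi-square divided by its degrees of freedom was 1.77 (7918 genes), more than sampling noise but far less than the 6.57 to 29.6 of the other pairs, and these values do not show whether they are separate cultures. Listed genes held 1283029 to 1487137 UMIs per library, and 3 UMIs correspond to 1.35 to 1.67 CPM. Intervals and limits from counts cover counting error only.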

Additional observations from a re-analysis of the deposited data

How the results depend on the processing

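The count of members called was 0 in 14 of 15 alternatives and 1 with gene-only CPM. Of all genes tested 182 genes were called, against 108 with no filter, 325 with TMM-scaled CPM, 498 with gene-only CPM, 304 with edgeR's quasi-likelihood test and 573 with the replicate block, and between 26 and 856 when a library was left out (26 without Sema3G replicate 2, 28 without Sema3G replicate 3, 92 without PBS replicate 1 and 856 without Sema3G replicate 1). With the deposited CPM 160 of these calls were higher and 22 lower, with TMM-scaled CPM 322 and 3, with gene-only CPM 496 and 2, with the replicate block 298 and 275, and without Sema3G replicate 1 303 and 553. The change of Bak1, Bcl2l1 and Bid kept its sign in all 15 alternatives and that of Bcl2l11 did too, between 0.36 and 0.48 when a library was left out. Signs turned for Mcl1, Bax, Bbc3, Bcl2 and Bcl2a1b, the last without PBS replicate 1. With TMM-scaled CPM the changes were 0.20 for Mcl1, 0.12 for Bax and 0.00686 for Bbc3. With gene-only CPM they were 0.28 for Mcl1, 0.20 for Bax and 0.0896 for Bbc3, in edgeR's test 0.21, 0.0765 and 0.0608, and in DESeq2 0.22, 0.079 and 0.0653. With a library left out the changes ranged from -0.0782 to 0.21 for Bcl2, from -0.0761 to 0.0677 for Mcl1, from -1.28 to 0.20 for Bcl2a1b and from -0.44 to 0.28 for Bax. None of these was called, and the cause was not tested. The replicate block gave 0.10 for Bax and called no member. Same-numbered samples correlated at 0.173 and 0.111 in their deviations from the group means, but with only 2 such pairs (Sema3G replicate 3 has no partner and adds nothing to that fit) the numbers do not show that the samples were paired. The call of Birc6 was lost in 6 alternatives and that of Mapk3 in 10, with the direction kept. Members under about 10 UMIs a library, such as Bcl2, are limited by depth.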
